A study of Mus musculus with 12 samples.

Results

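The Hedgehog pathway was followed across thymic stroma of newborn mice through 10 genes: the ligands Shh and Ihh, the receptor Ptch1, the signal transducer Smo, the coreceptors Gas1 and Boc, the transcription factors Gli1, Gli2 and Gli3, and the inhibitor Hhip. The genes were taken by name, and each of the 10 had exactly 1 probe set carrying its symbol alone, of 19938 genes measured in this way. RNA came from thymic epithelium/stroma of day 7 pups of the FCG mouse, a model that separates gonads from sex chromosomes, on a C57BL/6J background and was read on 12 Affymetrix whole-transcript arrays. There were 3 arrays from XX gonadal females (XXF), 3 from XY gonadal females (XYF), 4 from XX gonadal males (XXM) and 2 from XY gonadal males (XYM). In this model Sry, the testis-determining gene, is missing from the Y chromosome and supplied by an autosomal transgene present in several copies, so XXM and XYM carry the transgene while XXF and XYF do not, and both XYF and XYM carry the Sry-deleted Y chromosome. Neither labels nor methods say whether each array held RNA of a separate pup, so the p-values measure the spread between arrays, which may be technical.

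In Hedgehog signalling, a secreted ligand (Shh, Ihh or Dhh) binds Ptch1, which otherwise holds Smo inactive. Freed Smo acts in the primary cilium, a small antenna of the cell surface, and turns the Gli factors from repressors into activators, with Gli2 as the main activator, Gli3 as the main repressor and Gli1 as an activator that is itself a target gene. Ptch1 and Hhip, also target genes, bind the ligand and dampen the response, whereas Boc, Gas1 and Cdon help present the ligand to Ptch1. In the thymus, Shh made by epithelial cells is known to act on developing thymocytes.

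The value of a probe set was a linear intensity without a detection call, so the genes were read against 1035 probe sets of olfactory receptors, which are largely silent outside the nose. The median of these probe sets was 107 and their 95th percentile 309.5. By this measure 8 of the 10 genes lay above the reference, and Shh and Gli1 did not; of all 19938 genes 56.5% did, so passing it is common. Xist, Eif2s3y and Sry matched the labelled genotype on all 12 arrays. The Sry probe set read 2524 to 2836 on male arrays and 416 to 565 on the 6 female arrays, which carry no Sry. A probe set can thus pass 309.5 without its gene, so passing the reference does not show expression. The means of Ihh, Gli2 and Hhip, 344, 371 and 479, lay under the highest female Sry value. All 10 measured epithelial and all 9 measured mesenchymal genes lay above the reference, as did 9 of 9 measured thymocyte and 6 of 6 endothelial genes. Passing it is therefore no check of the tissue label. The brightest thymocyte markers were Cd8b1 at 5736 and Rag1 at 5298, against Krt8 at 6433 and Ly75 at 2817 in epithelium and Dcn at 2983 in mesenchyme. The arrays therefore read a mixed tissue, in which the signal of a gene cannot be assigned to stromal cells. Fewer cells of a type and less RNA per cell cannot be told apart either.

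**Figure D1:**
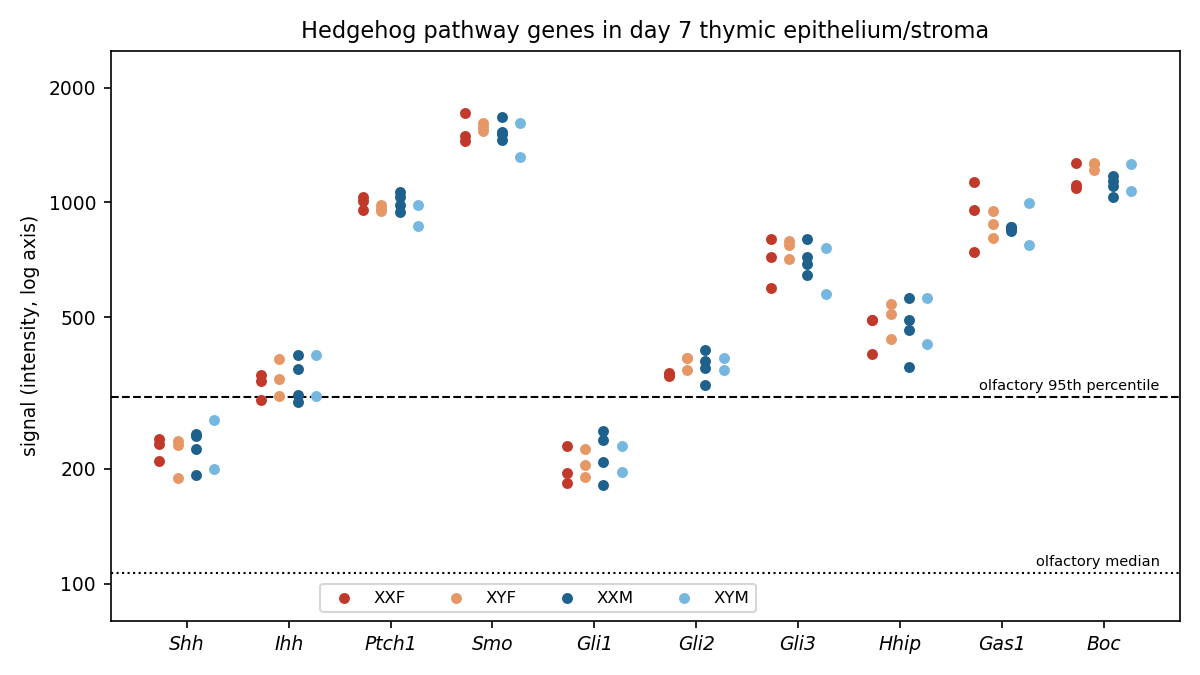
Signal of the 10 Hedgehog pathway genes as intensity on a log axis, with 1 point per array (12 in all) and colours for the 4 genotypes. A dashed line marks the olfactory receptor 95th percentile, 309.5, and a dotted line the median of those probe sets, 107; all points of Shh and Gli1 lie between the lines, and the genotypes overlap for every gene.

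Among the ligands, only Ihh, best known as the ligand of growing cartilage and gut, lay above the reference, and it did so narrowly. Its signal was 303, 341 and 353 in XXF, 310.4, 343 and 388 in XYF, 313, 300.2, 365 and 398 in XXM, and 311 and 399 in XYM. Ihh exceeded 309.5 on 10 of 12 arrays and exceeded the 95th percentile of its own array on 12 of 12, by a factor of 1.01 to 1.23. Shh, the ligand known from thymic epithelium, had a signal of 209, 239.8 and 232 in XXF, 189.6, 231 and 237 in XYF, 193, 226, 247 and 244 in XXM, and 200.3 and 269 in XYM. None of these 12 values passed the 95th percentile, and the mean of 227 ± 23.9 (SD, n = 12) fell at percentile 89.6 of the olfactory receptor probe sets. Shh signal was thus not separable from that of genes largely silent outside the nose, which is no measure of its absence. Dhh, the third ligand, lay at 206, also under the reference.

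The receptor and the transducer were far above it. Ptch1 had a signal of 1008, 956 and 1036 in XXF, 952, 987 and 959 in XYF, 1067, 945, 1036 and 986 in XXM, and 983 and 866 in XYM. The lowest Ptch1 value, on XYM array 9, stood apart from the other XY arrays, and the remaining 11 arrays lay between 945 and 1067. Smo signal averaged 1543 ± 108 (SD, n = 12), and its lowest value, 1316, came from the same XYM array. The coreceptors Gas1, a membrane-anchored protein, and Boc, an immunoglobulin-family protein, averaged 888 ± 107 (SD, n = 12) and 1167 ± 87.0 (SD, n = 12), both above the 99th percentile of the reference, 458.8. Gas1 ran from 742 to 1133, with both ends in XXF, whereas the 4 XXM arrays lay between 841 and 864.

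The Gli factors divided. Gli3, which yields the main repressor, averaged 716 ± 76.9 (SD, n = 12) and Gli2, the main activator, 371 ± 22.4 (SD, n = 12), and both passed the reference on all 12 arrays. Gli1, often read as a sign of an active pathway, had a signal of 184, 195 and 229.9 in XXF, 191, 225 and 204 in XYF, 181, 209, 252 and 238 in XXM, and 197 and 230.2 in XYM. All 12 Gli1 values lay under 309.5, and their mean of 211 ± 23.2 (SD, n = 12) fell at percentile 87.2 of the reference. Hhip, the decoy that captures ligand, had 491, 491 and 400.0 in XXF, 509.5, 543 and 437 in XYF, 463, 562, 491 and 371 in XXM, and 562 and 426 in XYM, above the reference on every array. Of the 3 feedback targets of the pathway, Ptch1 and Hhip therefore passed the reference and Gli1 did not. Hhip ran from 371 to 562, and the Sry probe set reached 565 on female arrays without Sry. Passing the reference therefore does not set Hhip apart from probe background. Probe sets differ in brightness for the same amount of RNA, so these levels do not order the genes by abundance.

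The promoters of Ptch1, Hhip and Ihh are given because Ptch1 and Hhip are feedback targets and Ihh was the ligand above the reference. The table of RefSeq promoters (GRCm38.p6) matched 7 of the 10 genes, with none for Shh, Gli1 and Boc. Each sequence below is the 250 bases before the annotated start, read on the gene's strand, which is the minus strand for all 3 (Ptch1 chr13:63565736-63565985, Hhip chr8:80058009-80058258, Ihh chr1:74951673-74951922), and capitals mark the core CCACCC of the Gli motif or its reverse complement.
Ptch1: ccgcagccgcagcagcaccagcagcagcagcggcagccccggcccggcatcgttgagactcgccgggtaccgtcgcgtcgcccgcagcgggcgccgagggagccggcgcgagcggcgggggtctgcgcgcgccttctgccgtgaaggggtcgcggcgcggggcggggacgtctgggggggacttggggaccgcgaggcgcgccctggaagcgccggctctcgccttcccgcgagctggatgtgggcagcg
Hhip: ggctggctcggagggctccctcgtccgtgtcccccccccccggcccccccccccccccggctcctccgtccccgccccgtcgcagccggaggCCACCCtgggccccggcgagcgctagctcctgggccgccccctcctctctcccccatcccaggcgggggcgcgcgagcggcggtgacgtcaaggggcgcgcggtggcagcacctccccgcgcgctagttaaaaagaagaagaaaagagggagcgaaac
Ihh: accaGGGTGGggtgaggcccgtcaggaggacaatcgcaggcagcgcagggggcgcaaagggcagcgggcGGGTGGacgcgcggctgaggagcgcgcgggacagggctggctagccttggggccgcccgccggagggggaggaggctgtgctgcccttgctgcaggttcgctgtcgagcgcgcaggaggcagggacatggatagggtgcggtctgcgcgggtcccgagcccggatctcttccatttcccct

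The 9-letter Gli motif GACCACCCA, searched on both strands, was found in 0 of the 7 promoters and in 0.225% of 32851 promoters of the same length. Its core CCACCC, which lies inside the longer motif and was counted on both strands, was found in 5 of the 7 (Gli2, Gli3, Hhip, Ihh and Smo) and in 28.1% of all promoters. Hhip held it 158 to 153 bases before the start, and Ihh held it on the opposite strand at 246 to 241 and at 181 to 176. Ptch1 and Gas1 held none. Of 35 promoters of other pathway genes, 8 held the core (22.9%). The 7 promoters were rich in G and C, with a median of 72.0% against 52.4% over all promoters, and a match is a description of these letters only.

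The 6 arrays from males were set against the 6 from females. These groups differ in gonads, in hormones around birth and in the Sry transgene, which cannot be told apart in this comparison. No Hedgehog gene passed a test. With limma and Benjamini-Hochberg adjustment over all 35556 probe sets, 0 of 10 passed an adjusted p of 0.05, where 0.00281% of all probe sets did, and 0 of 10 passed an unadjusted p of 0.05, where 3.03% did. The factorial test named in the methods, unmoderated and rerun per probe set on the deposited values, called 0 of 10 as well, at either level. Of all probe sets it called 0.00281% adjusted and 2.95% unadjusted. The study itself reports more genes with a significant sex difference than this rerun called after adjustment. The counts are not alike: its methods name RMA, whereas the notes on the deposited values name PLIER. Whether its count rests on adjusted p-values is not stated. The log2 differences, male minus female, ran from -0.09 (Gli3) to 0.08 (Gli1), with 5 above 0 and 5 below, and their median of -0.01 compares with 0.00 over all probe sets.

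The precision of this comparison can be read from its intervals. For the 10 genes the male to female ratio had 95% confidence bounds between 0.812 and 1.23. For Ptch1 the ratio was 0.981 with an interval of 0.897 to 1.07, and for Smo 0.959 with an interval of 0.859 to 1.07. For Gli1 it was 1.06 (0.909 to 1.23), although this gene was not above the reference. Male and female arrays overlapped for every gene.

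Boc had the lowest p in this comparison. Its signal was 1269, 1111 and 1091 in XXF, 1258, 1273 and 1218 in XYF, 1136, 1173, 1033 and 1101 in XXM, and 1265 and 1072 in XYM. Females ran from 1091 to 1273 with a median of 1238, and males from 1033 to 1265 with a median of 1119, so the sexes shared most of their range. Females averaged 1203 ± 81.9 (SD, n = 6), and for males the mean was 1130.0 ± 82.0 (SD, n = 6). Their log2 difference was -0.09 with an exact two-sided permutation p of 0.147, and the limma estimate of -0.08 ± 0.07 (SE) had an adjusted p of 0.985. Within arrays 1 to 4, 5 to 8 and 9 to 12 of the labels the Boc difference was -0.08, -0.11 and -0.08. As arrays 5 to 8 were XXM, XXM, XXF and XYF, the male arrays there were all XX, and sex was mixed with complement.

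The sex chromosome complement was compared between the 5 XY and the 7 XX arrays, which share the same arrays as the comparison by gonad. With limma, 0 of 10 genes passed an adjusted p of 0.05, where 0.0366% of all probe sets did, and 0 of 10 passed an unadjusted p of 0.05, where 2.55% did. The factorial test again called 0 at either level, against 0.0225% and 3.01%. Differences, XY minus XX, ran from -0.09 (Ptch1) to 0.09 (Boc) on the log2 scale, with a median of 0.00, and the intervals of the ratio reached from 0.839 to 1.27. Summed thymocyte markers were 30963 to 32204 on XY arrays and 32596 to 35759 on XX arrays. Summed epithelial markers were 17322 to 19730 and 15758 to 20574, and summed mesenchymal markers 12442 to 16712 and 12294 to 18504. Of the 9 thymocyte, 10 epithelial and 9 mesenchymal genes 0 were called by complement, and 1, 1 and 2 were under an unadjusted 0.05 in limma. Their log2 differences, XY minus XX, were above 0 for 0, 9 and 2 genes, with medians of -0.12, 0.09 and -0.13. How often other features separate XY from XX arrays was not computed. The part of this tissue make-up in the XY and XX values was not tested.

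Ptch1, the receptor, lay lower on XY arrays in the mean, 949 ± 48.8 (SD, n = 5) against 1005 ± 45.0 (SD, n = 7) on XX arrays. The log2 difference of -0.08 had an exact two-sided permutation p of 0.0707, the values overlapped, and it was -0.10, 0.01 and -0.15 within arrays 1 to 4, 5 to 8 and 9 to 12. The limma adjusted p was 1.00. Boc lay the other way, 1217 ± 83.9 (SD, n = 5) on XY arrays against 1131 ± 74.5 (SD, n = 7) on XX arrays, and this difference of mean log2 signals, 0.11, had an exact permutation p of 0.0934. Within the 3 sets of arrays the Boc difference was 0.07, 0.21 and 0.06. For both genes the value of arrays 5 to 8 rests on the only XY array of that set, an XYF array. Neither gene passed a test.

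Hhip was the gene for which the grouping of arrays mattered most. XY arrays had 496 in XYF and 494 in XYM on average, against 461 in XXF and 472 in XXM, and the difference of 0.09 on the log2 scale had an exact permutation p of 0.46. Within arrays 1 to 4, 5 to 8 and 9 to 12 the Hhip difference was 0.17, 0.08 and 0.16, with an XYF array again the only XY array of arrays 5 to 8. With these sets as a block in limma it was 0.15 ± 0.06 (SE), with an unadjusted p of 0.0254 and an adjusted p of 0.718, and Hhip was the 1 gene of 10 under an unadjusted 0.05 in that fit, where 6.90% of all probe sets were (11.5% by sex, with 0 of 10), a share near that of the 10 genes. Blocking left 0 of 10 past the adjusted threshold in either comparison, against 0.00281% by sex and 0.0394% by complement.

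**Figure D2:**
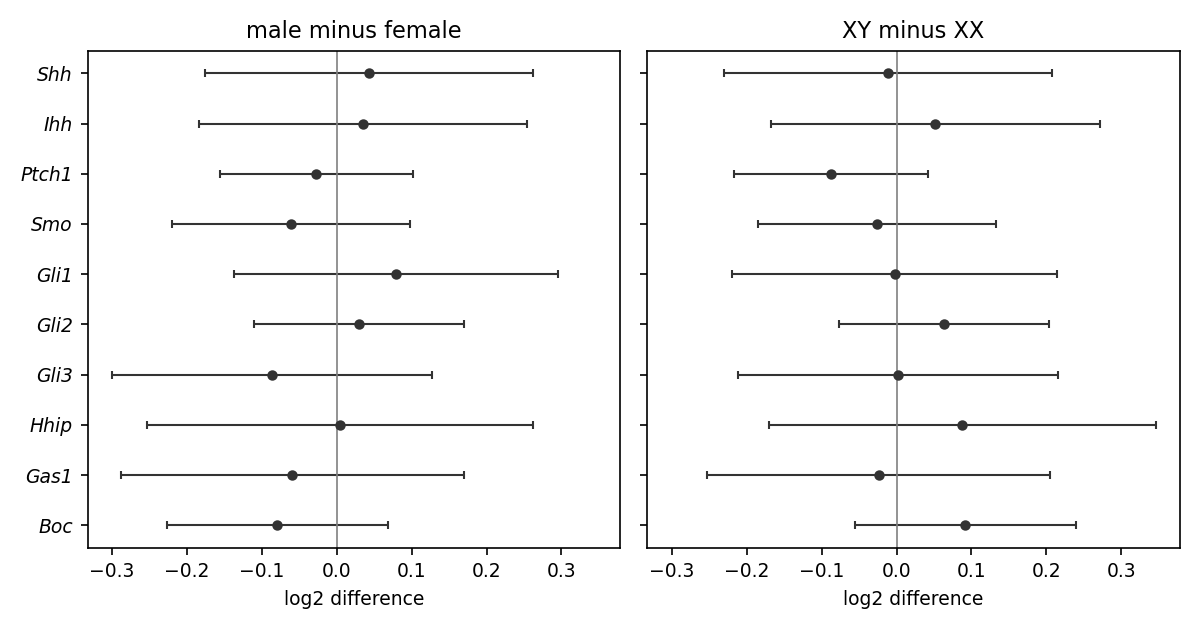
Log2 differences of the 10 genes, male minus female on the left and XY minus XX on the right, as limma estimates (points) with 95% confidence intervals (bars) over 12 arrays. Every interval spans 0, and the points stay between -0.09 and 0.09.

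Whether the chromosome effect differed between the gonadal sexes was tested as an interaction. None of the 10 genes passed it with limma, adjusted or unadjusted, against 0.00% and 1.54% of all probe sets. The largest interaction was that of Gli3, -0.22 ± 0.20 (SE) on the log2 scale, with an adjusted p of 1.00. Gli3 had 759.7 and 576 in XYM, 791, 771 and 713 in XYF, 801, 721 and 597 in XXF, and 720.4, 803, 644 and 691 in XXM, so 1 XYM array fell inside the range of the other genotypes and 1 below it. The interval of this interaction, from -0.65 to 0.21, was wide, and XYM had 2 arrays. A test of any difference among the 4 genotypes called 0 of 10 genes, adjusted or unadjusted, against 0.0281% and 1.99% of all probe sets.

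The surrounding pathway was read through 41 measured genes in 5 lists, of 44 named. In limma 0 of 41 rose and 0 fell by gonadal sex or by chromosome complement at an adjusted p of 0.05, and at an unadjusted p of 0.05 there were 0 by sex and 1 by complement, no more than the 3.03% and 2.55% of all probe sets would give in 41 genes. Their median log2 difference was 0.00 for both comparisons, against 0.00 by sex and 0.01 by complement over all probe sets. The factorial test called 0 of 41 after adjustment, and 1 by sex and 2 by complement before it, near the 2.95% and 3.01% of all probe sets.

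Genes for ligand release had 3 of 7 above the reference, with Disp1, the transporter that frees the lipid-bearing ligand, at 2336, and Hhat, which attaches the palmitate, at 398. Receptor partners had 3 of 5 above it, and Cdon, the coreceptor related to Boc, lay under it at 172. All 8 measured cilium transport genes were above it, among them Kif7, the kinesin that organises the ciliary tip, at 436 and Ift88, part of the intraflagellar transport complex, at 503. Of the Gli regulators 8 of 9 were above it, with Sufu, which holds the Gli factors in the cytoplasm, at 1004. Of 12 genes known as targets in other tissues 7 were above it, including Ccnd1, a cyclin of the G1 phase, and Bcl2, an inhibitor of cell death, at 1076 and 1450. The fork-head genes Foxf1, Foxf2, Foxl1 and Foxc2, which respond to the pathway in mesenchyme of the gut and other organs, all lay under it, at 286, 162, 149 and 259.6.

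Gpc3, a glypican encoded on the X chromosome that competes with Ptch1 for ligand, had the largest standard error of the 41 on the log2 scale. XX arrays averaged 732 ± 234 (SD, n = 7) and XY arrays 534 ± 217 (SD, n = 5), which is -0.46 ± 0.27 (SE) on the log2 scale with an adjusted p of 1.00 in limma, inside the spread between arrays. The 9 measured mesenchymal markers had XY minus XX values of -0.52 to 0.08 with a median of -0.13, 2 of them above 0 and 0 called, and their part in the Gpc3 value was not tested. Bmi1, a Polycomb gene, was the gene under an unadjusted 0.05, with a mean of 472 ± 25.1 in XX (SD, n = 7), a mean of 431 ± 42.0 in XY (SD, n = 5) and an adjusted p of 1.00. Sufu averaged 1030.5 ± 15.8 in XX (SD, n = 7) and 967 ± 70.7 in XY (SD, n = 5), also with an adjusted p of 1.00. By sex, Ccnd1 had the lowest log2 difference of the lists, -0.15, and Foxc2 the highest, 0.11.

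**Figure D3:**
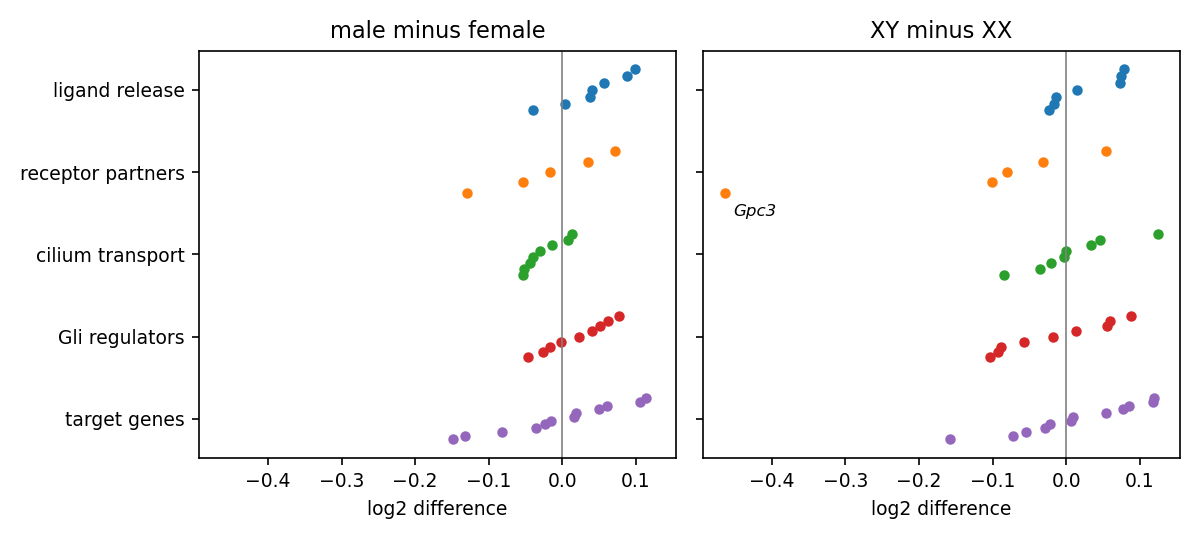
Log2 differences of 41 further Hedgehog pathway genes in 5 lists, male minus female on the left and XY minus XX on the right; each point is a gene, estimated by limma over 12 arrays. Points run from -0.15 to 0.11 by sex and from -0.46 to 0.12 by complement, and the point farthest from 0 is Gpc3.

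The Hedgehog genes also varied with the number of the array. Arrays 1 to 4 and arrays 9 to 12 of the labels each held 1 array of every genotype, so the 2 sets are balanced, and what the numbers stand for is not given in the sources used here. Shh lay at 198 ± 8.75 (SD, n = 4) on arrays 1 to 4 and 245 ± 16.1 (SD, n = 4) on arrays 9 to 12, Ihh at 309 ± 4.27 and 385 ± 21.7, and Gli1 at 188 ± 7.05 and 226 ± 14.6. For these 3 genes every array of the later set was above every array of the earlier one, with log2 differences of 0.31, 0.31 and 0.26. Smo went the other way, 1646 ± 59.7 against 1454 ± 98.2 (SD, n = 4 each), as did Gli3, 768 ± 36.3 against 644 ± 67.9, and Hhip, 507 ± 41.5 against 409 ± 29.4. Their log2 differences were -0.18, -0.26 and -0.31, and the 2 sets did not overlap for these genes. Ptch1, Gli2, Gas1 and Boc overlapped between the sets.

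Such separation was common on these arrays. Of all probe sets 21.3% were higher on arrays 9 to 12 without overlap and 12.7% were lower; with 10 genes, 3 higher and 3 lower are 30.0% each, and nothing particular to the pathway is read from them. The direction went with brightness: olfactory receptor probe sets were higher in 40.2% and lower in 0.0966%, with a median log2 shift of 0.28, whereas probe sets above the 95th percentile were higher in 12.5% and lower in 21.0%, with a median of -0.06. The 3 Hedgehog genes that were higher were the 2 under the reference and Ihh, the nearest above it. Relative to the olfactory median of the same array, Shh ran from 1.97 to 2.29, Ihh from 2.94 to 3.61 and Gli1 from 1.76 to 2.14 over the 12 arrays, and on that scale 0 of 10 genes were higher on arrays 9 to 12 and 7 were lower, where 0.922% of all probe sets were higher and 34.6% lower. After a renewed quantile normalization Shh and Ihh were still higher and Hhip still lower without overlap, and Gli1, Smo and Gli3 overlapped, with 13.5% of all probe sets higher and 12.0% lower. Summed epithelial markers were 18832 to 20574 on arrays 1 to 4 and 15758 to 18026 on arrays 9 to 12. Singly, 4 of the 10 epithelial genes were lower and 0 higher without overlap. The brightest, Krt8 at 6433, shifted by -0.32 on the log2 scale, and Foxn1 by 0.05. Summed cartilage markers were 1463 to 1557 and 1628 to 1903, with 3 of 6 genes higher, 0 lower and 2 above the reference. Of 9 mesenchymal and 6 endothelial genes 0 were higher and 0 lower without overlap. Erythroid markers had 2 of 3 genes higher and 0 lower, and thymocyte markers 0 of 9 higher and 1 lower. The part of these markers in the shifts was not tested. Of the 41 further pathway genes 4 were higher and 6 lower without overlap.

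**Figure D4:**
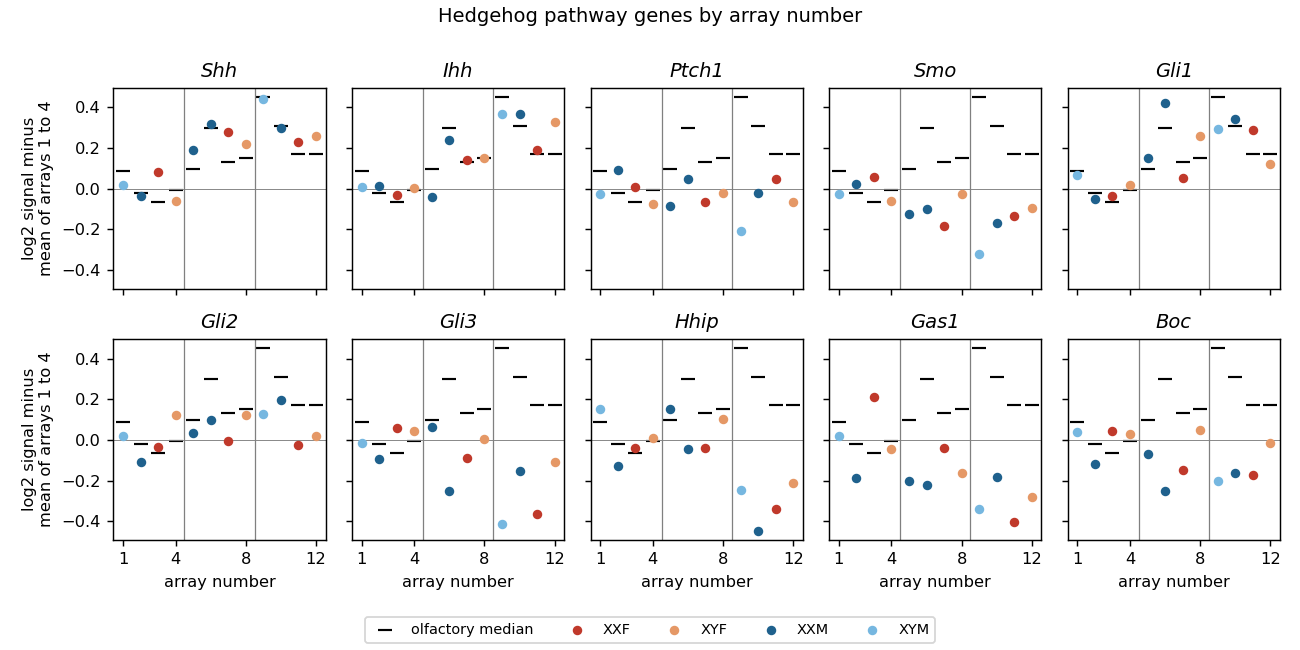
Log2 signal of each gene by array number, minus its mean over arrays 1 to 4, with 1 coloured point per array by genotype and a black dash for the median of the olfactory receptor probe sets treated alike; grey lines divide arrays 1 to 4, 5 to 8 and 9 to 12. Points of Shh, Ihh and Gli1 lie close to the dashes, and on arrays 9 to 12 those of Smo, Gli3 and Hhip lie below 0.

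Because of these sets, likeness between genes was taken after centring each set on its own mean. Over the 12 arrays and 11264 genes above the reference, the genes most like Ptch1 were Inpp5d, Slc44a2 and Gba2, with Pearson r of 0.96, 0.96 and 0.95. Those most like Gli1 were Nos1ap, Nudt7 and Washc2, with r of 0.93, 0.91 and 0.90. These are the highest of many values over few arrays that share their scaling. Gli1 itself lay under the reference on all 12 arrays, and by that reference its signal cannot be told from background. The 10 Hedgehog genes were left out of the search, while further pathway genes above the reference were part of it.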

How the data were processed

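RNA of day 7 thymic epithelium/stroma from 12 FCG arrays was used. The deposited values are linear intensity units for 35556 probe sets. PLIER in Affymetrix Expression Console 1.1 is given in the submitters' processing notes, and RMA with quantile normalization in the methods. The values were used as deposited. Stromal tissue was freed of thymocytes by pressing and washing, so cells that stay attached remain in the RNA. Symbols came from the platform annotation, updated through RefSeq; probe sets with several symbols were not used. In R 4.3.3, limma 3.58.1 was fitted to log2 intensities as 4 genotype means, with contrasts for sex, complement and interaction and Benjamini-Hochberg adjustment at 0.05. Exact permutation tests ran over 924 (sex) and 792 (complement) groupings and were two-sided, on differences of mean log2 signal. The number of arrays limits precision. Genes named were the 10 members, up to 3 brightest and 3 lowest in p of each list, and the 3 most like Ptch1 and Gli1; other pathway genes named for their role (Dhh, Hhat, Cdon, Kif7, Ift88 and the Fox genes) were picked with their values known. The members and lists were chosen with earlier results of these data known. The fit was tested on simulated data. As alternatives, quantile normalization was repeated, 16 was added before log2, dim probe sets were removed, the interaction was dropped, and the unmoderated factorial test of the methods, array weights, array sets as a block, averaged probe sets of a gene, other reference levels and leaving out each array were tried; those on array sets were added after the data were seen.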

Additional observations from a re-analysis of the deposited data

Results flagged for a closer look

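XYM array 9 stood apart from the other 4 XY arrays for 3 genes, by the ratio of its gap to the range of the group. Ptch1 was 866 on this array against 952 to 987 on the others, Smo 1316 against 1542 to 1618, and Boc 1072 against 1218 to 1273. The same array had the highest olfactory receptor median, 131 against 91.3 to 118 elsewhere, and its part in these values was not tested. Of 50 groups of arrays examined over the 10 genes 3 were marked in this way, and chance marks about 1 in 20, or 2.5.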

How the results depend on the processing

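No gene of the 10 and none of the 41 further pathway genes passed the adjusted threshold under any alternative run, and the lowest adjusted p of a member was 0.489. The count above the reference was 8, with 6 at the 99th percentile of olfactory receptors and 10 at the 95th percentile of vomeronasal receptors. Of 396 alternative log2 differences 43 changed sign, 39 of them on leaving out 1 array. The other 4 were XY minus XX: Shh with the array sets as a block 0.0196, Gli1 with array weights 0.0182 and with the block 0.0212, and Gli3 with array weights -0.0122. Leaving out each array in turn, male minus female ran from -0.0630 to 0.15 for Shh, -0.0552 to 0.13 for Ihh, -0.0728 to 0.0185 for Ptch1, -0.14 to 0.0137 for Smo, -0.19 to 0.0136 for Gli3, -0.0952 to 0.10 for Hhip and -0.15 to 0.0306 for Gas1. XY minus XX ran from -0.12 to 0.0949 for Shh, -0.0384 to 0.14 for Ihh, -0.10 to 0.0480 for Smo, -0.0590 to 0.0543 for Gli1, -0.0980 to 0.10 for Gli3, -0.0120 to 0.19 for Hhip and -0.11 to 0.0666 for Gas1. The remaining differences kept their sign but not their size: by sex, Boc ran from -0.14 without XYM array 1 to -0.0197 without XYM array 9, Gli1 from 0.0226 to 0.14 and Gli2 from 0.0030 to 0.0575; by complement, Ptch1 ran from -0.13 without XYM array 1 to -0.0421 without XYM array 9, Boc from 0.0321 without XYM array 1 to 0.15 without XYM array 9, and Gli2 from 0.0356 to 0.0901. Between arrays 9 to 12 and arrays 1 to 4, with 3 genes higher and 3 lower, renewed quantile normalization gave 2 higher and 1 lower (13.5% and 12.0% of all probe sets), and division by the olfactory median 0 higher and 7 lower (0.922% and 34.6%). Leaving out 1 array gave 3 higher in each case and 3 to 5 lower, the 5 without XXM array 2, when Gas1 and Boc joined. Array numbers are unique, so the labels give no pairing, and whether the arrays of a set were handled together is not given in the sources used here. Signals under the olfactory 95th percentile, as for Shh and Gli1, cannot be told from background by that reference. The means of both genes passed the vomeronasal 95th percentile, 172.9, so this reading depends on the reference chosen.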
